A study of Arabidopsis thaliana with 4 samples.

Results

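The 3 genes of CP29, the LHCB4.1, LHCB4.2 and LHCB4.3 proteins of the photosystem II antenna, and RCA, the gene of Rubisco activase, were followed in Arabidopsis thaliana with and without abscisic acid (ABA). They were taken as the probe sets annotated to exactly 1 of these 4 genes. This gave 4 probe sets, 1 for each gene, out of 13513 probe sets with 1 annotated gene (13356 genes) and 22746 analysed in all. No probe set shared by several genes named any of them. LHCB4.1 is AT5G01530 on chromosome 5, LHCB4.2 is AT3G08940 on chromosome 3, and LHCB4.3 (AT2G40100) and RCA (AT2G39730) lie on chromosome 2 with 54 annotated genes between them, of which 44 are protein-coding, per RefSeq's annotation of TAIR10.1. It lists 1 transcript for LHCB4.1, 2 for LHCB4.2, 2 for LHCB4.3 and 3 for RCA. No source used here says which of these transcripts each probe set reads.

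The study hybridised whole plants, 10 days old and of the Ws-2 background, to Affymetrix ATH1 arrays. Each of the 4 groups had 1 array: wild type (WS) without ABA (WS control), WS with ABA (WS ABA), a line labelled gpa1 without ABA (gpa1 control), and that line with ABA (gpa1 ABA). Per the labels, 100 µM ABA was given for 3 h, plants grew on Murashige and Skoog agar at 21 °C with 16 h light and 8 h dark, and 10 plants were pooled. The gpa1 line came from a seed stock of its own, and its labels place a T-DNA in At3g26300, while GPA1, which encodes the G protein alpha subunit, is AT2G26300. Every sample carries the same treatment text, so the control groups are known from the sample titles. No group had a second array, so each difference between 2 arrays has no replicate check.

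CP29 is a monomeric chlorophyll protein that sits between the outer trimeric light-harvesting complexes and the core of photosystem II, passes excitation energy inwards and takes part in photoprotection. LHCB4.1 and LHCB4.2 encode its usual forms, and LHCB4.3 encodes a form with a shorter C-terminal end. Rubisco activase is an ATPase of the chloroplast stroma that removes inhibitory sugar phosphates from the active sites of Rubisco, the enzyme that fixes CO2. In Arabidopsis its transcript is spliced into forms for a long, redox-regulated protein and a short one. ABA is the hormone of drought, and it closes the stomata through which CO2 enters the leaf.

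The arrays labelled ABA carried the marks of that label, and the arrays also differed in technical readings. No reading given here checks the gpa1 label. Of a fixed list of 15 ABA-induced markers, 5 had a probe set with 1 gene: COR15A, COR15B, COR47, LTI30 and LEA4-5. All 5 were called higher on the arrays labelled ABA, with averaged log2 changes from 1.95 to 6.52. COR15A and LEA4-5 lay below the floor of 19.2, to which lower intensities were raised, on both control arrays, so their changes are lower bounds. The shoot was represented by the bright photosynthesis probe sets described below, and the root by EXPA7, EXPA18 and PYK10, the members of an 8-gene root list with a named probe set. The geometric mean of 9 spike-in probe sets, which read RNA added in the laboratory, was 383 without and 217 with ABA in WS, and 253 without and 366 with ABA in gpa1. The 25S ribosomal RNA probe set read 2236, 959, 1550 and 1800 in the same order. For actin, the 3-prime probe set divided by the 5-prime one, a ratio that grows as RNA degrades, gave 6.09 and 8.55 in WS and 8.71 and 6.76 in gpa1, without and with ABA. Thus WS control and gpa1 ABA were the higher pair in the first 2 readings and the lower pair in the actin ratio, the same pairs that set RCA apart below. In bulk RNA of whole plants, fewer green cells and less of a transcript per cell cannot be told apart.

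LHCB4.1 and LHCB4.2 were among the brightest probe sets. Values are the authors' linear intensities, already scaled to one level across arrays, and the brightness of one probe set is not comparable with that of another. In WS, LHCB4.1 read 5525 without and 3387 with ABA, and in gpa1 it read 4567 without and 4285 with ABA. Both ABA arrays were below both control arrays, but gpa1 ABA was close to gpa1 control. LHCB4.2 read 3162 without and 2258 with ABA in WS, and 2900.3 without and 2403 with ABA in gpa1, again with both ABA arrays below both controls. Of all 13647 tested probe sets, 44.2% had this order.

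Against its control, LHCB4.1 was 1.63-fold lower with ABA in WS and 1.07-fold lower in gpa1. LHCB4.2 was 1.40-fold lower in WS and 1.21-fold lower in gpa1. The averaged ABA change was tested with limma, an array test that pools the spread over probe sets, in a model of treatment and genotype in which the 2 genotypes stand in for replicates. LHCB4.1 had an averaged log2 change of -0.40 ± 0.30 (SE), with a 95% interval from -0.98 to 0.18 and a limma adjusted p of 0.282. LHCB4.2 had -0.38 ± 0.23 (SE), with an interval from -0.84 to 0.08 and a limma adjusted p of 0.189. Neither change passed the threshold of 0.05, and both intervals hold no change as well as falls larger than those in WS or gpa1.

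**Figure D1:**
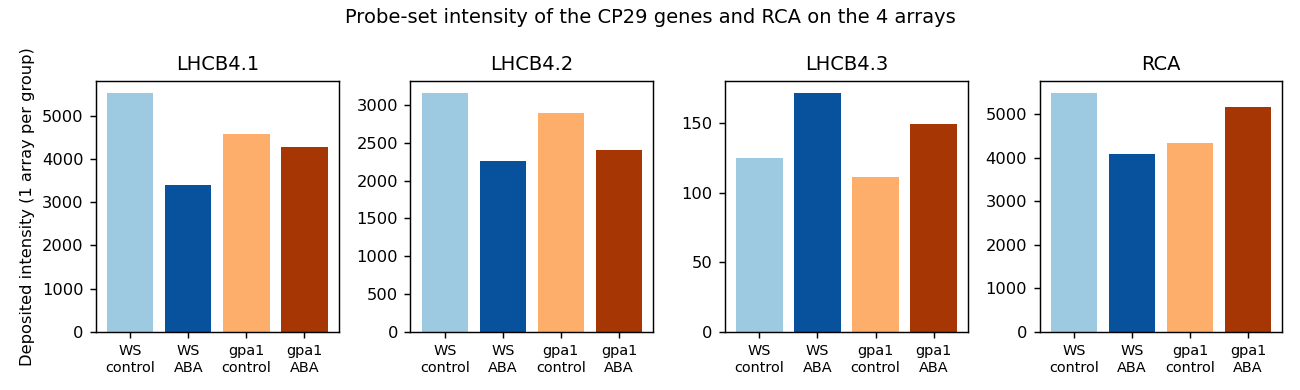
Deposited intensity (linear axis from 0, a separate scale for each gene) of LHCB4.1, LHCB4.2, LHCB4.3 and RCA on the 4 arrays, 1 bar per array and no error bars because each group had 1 array. LHCB4.3 is higher on both ABA arrays, LHCB4.1 and LHCB4.2 are lower on both, and RCA is high on WS control and gpa1 ABA.

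LHCB4.3 was the least bright member, with 36.1% of the tested probe sets brighter. It was the only member higher with ABA in both genotypes. Its intensity was 125.1 without and 171.5 with ABA in WS, and 110.8 without and 149.0 with ABA in gpa1. Both ABA arrays were above both control arrays, an order held by 24.3% of the tested probe sets. The level with ABA was 1.37-fold the control level in WS and 1.34-fold in gpa1, so the genotypes gave nearly the same change, 0.46 and 0.43 on the log2 scale. The averaged log2 change was 0.44 ± 0.17 (SE), with a 95% interval from 0.11 to 0.77 and a limma adjusted p of 0.0238.

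LHCB4.3 was therefore the 1 member of 4 that passed the test, and it rose. Over all tested probe sets, 17.1% were called higher and 25.7% lower with ABA, so 1 call among 4 genes is near the background. Over all tested probe sets the averaged log2 change had a median of -0.16, and relative to it LHCB4.3 stood at 0.60, LHCB4.1 at -0.24, LHCB4.2 at -0.22 and RCA at 0.08. The background split depends on the scaling of the arrays: 2327 probe sets were higher and 3507 lower as scaled here, against 2863 and 2284 with each array centred on its median.

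The call of LHCB4.3 depended on how the spread was estimated. Its adjusted p with limma was 0.0706 without the trend of spread on intensity, 0.0742 with treatment fitted alone and 0.146 with dim probe sets kept in. With treatment fitted alone and 1 array left out, it was 0.171 without WS control, 0.250 without WS ABA, 0.303 without gpa1 control and 0.128 without gpa1 ABA, with log2 changes between 0.34 and 0.54. It was called in 6 of the 13 alternatives. The direction was the same in all 13, but most of them could not have changed it. The other percentile floors, the filters and the spread models left the log2 change at 0.44. With both ABA arrays above both controls, leaving 1 array out could not turn the sign.

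LHCB4.3 was then set against its bright paralogues within each array, which compares changes and not levels. The log2 value of LHCB4.3 minus the mean log2 value of LHCB4.1 and LHCB4.2 was -5.06 without and -4.01 with ABA in WS, and -5.04 without and -4.43 with ABA in gpa1. On the authors' scale the controls of the 2 genotypes nearly coincided, and both ABA arrays were above both controls. With ABA this difference was higher by 1.05 in WS and by 0.61 in gpa1, or 0.83 on average. Against LHCB4.1 alone the average was 0.84, and against LHCB4.2 alone 0.82, while LHCB4.1 minus LHCB4.2 had -0.22 in WS and 0.18 in gpa1.

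An exact permutation test over the 4 arrays, two-sided, gave p = 0.333 for the 0.83 of LHCB4.3 against its paralogues. This is the smallest p that 2 arrays against 2 allow, so the design cannot reach 0.05 for a single value. The average lay between 0.78 and 0.83 in the 5 alternatives of scaling and floor. Centring each array on its median cancels in this difference, and the members lay above the other percentile floors. Only the remaining alternatives could therefore move the average. Under quantile normalization, which gives all arrays one distribution of values, the change was 0.71 in WS and 0.93 in gpa1. The controls then no longer coincided: gpa1 minus WS without ABA was -0.22 for LHCB4.3, 0.10 for LHCB4.1 and 0.11 for LHCB4.2 on the log2 scale. Whether probes of LHCB4.1 and LHCB4.2 also bind the transcript of the other gene was not tested.

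RCA followed another order. In WS it read 5487 without and 4082 with ABA, and in gpa1 4330.1 without and 5173 with ABA. The control and ABA arrays overlapped, with WS control and gpa1 ABA high and the other two low. The level was 1.34-fold lower under ABA in WS and 1.19-fold higher under ABA in gpa1, or -0.43 and 0.26 on the log2 scale. The averaged log2 change was -0.09 ± 0.31 (SE), with a 95% interval from -0.69 to 0.52 and a limma adjusted p of 0.853. The difference between the 2 responses of RCA, 0.68 on the log2 scale, was not tested, since no group had a second array.

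The opposite signs of RCA were more frequent among bright probe sets than among all tested ones, though most bright probe sets did not have them. Of the 173 tested probe sets with a mean intensity of at least 2000, 45.7% had a negative change in WS and a positive one in gpa1, against 10.6% of all tested probe sets. Genes encoded by chloroplast DNA are among these bright probe sets, such as atpB and psaB with this order and matK without it. Whether the order goes with brightness or with this class of genes was not tested. On the authors' scale, 11% of the 173 were called higher and 6.94% lower with ABA, against 17.1% and 25.7% of all tested probe sets. In WS the median log2 change of these 173 was -0.44, and in gpa1 0.13, close to the -0.43 and 0.26 of RCA. LHCB4.1, at -0.71 and -0.09, was lower than this median in both genotypes, by a similar amount, and so was LHCB4.2, at -0.49 and -0.27, by less in WS than in gpa1. The spike-in probe sets had log2 differences between ABA and control of -0.82 in WS and 0.53 in gpa1, and the 25S ribosomal RNA of -1.22 and 0.22, while the actin ratio was higher with ABA in WS and lower with ABA in gpa1. The part of these technical readings in the values of RCA, LHCB4.1 and LHCB4.2 was not tested.

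LHCB4.3 lay outside that brightness range. Among the 3333 tested probe sets with a mean intensity from 100 to 200, the log2 ABA change had a median of -0.11 in WS and -0.14 in gpa1, and 8.16% were lower in WS and higher in gpa1. The rise of LHCB4.3 was in the opposite direction to the median of its brightness range in both genotypes. In the same range 20.4% of the probe sets were called higher and 28.1% lower with ABA, beside 17.1% and 25.7% of all tested ones. The limits of these ranges were chosen after the members' values were seen, and the ranges are a description with no test.

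**Figure D2:**
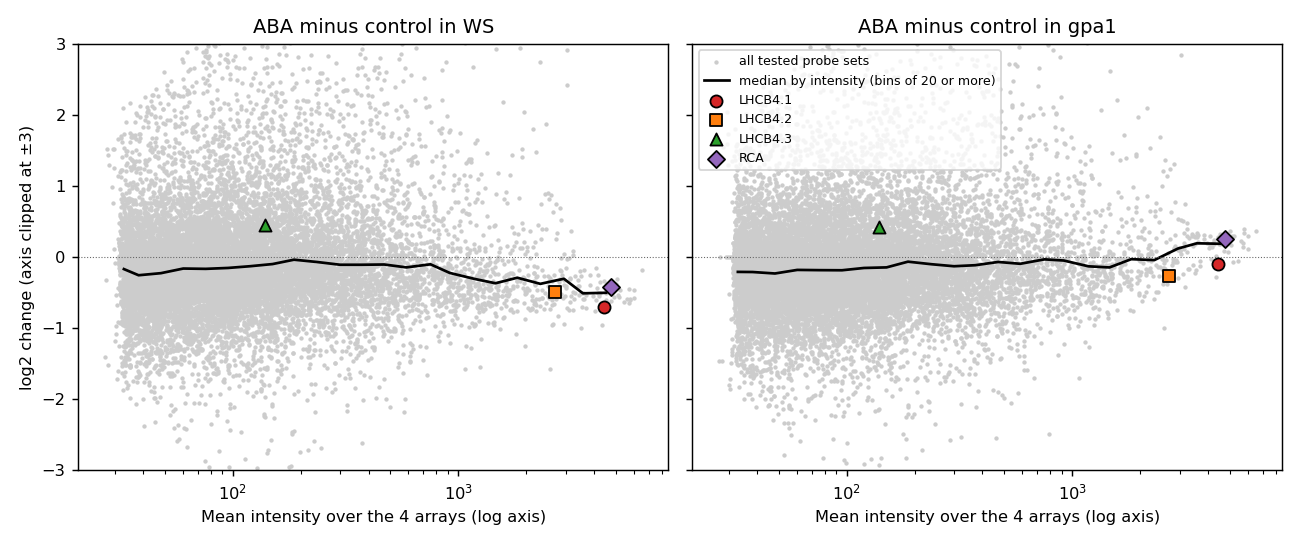
The log2 change with ABA in WS (left) and gpa1 (right) against the mean intensity over the 4 arrays (log axis) for all tested probe sets (grey), with the median by intensity (black line) and the 4 genes marked. The line falls at the bright end in WS and rises there in gpa1, where RCA lies close to it, LHCB4.1 and LHCB4.2 lie below it, and LHCB4.3 lies above it at middle brightness; changes beyond 3 on either side are not shown.

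Quantile normalization narrowed the gap between the genotypes for RCA and LHCB4.1, but not for LHCB4.2. The median log2 change of the 173 bright probe sets then was -0.12 in WS and -0.09 in gpa1. RCA had 0.01 in WS and 0.04 in gpa1, so the opposite signs were gone. LHCB4.1 had -0.24 and -0.39, and LHCB4.2 had -0.29 and -0.51, so that in both the gpa1 value was now the lower one. Their averaged log2 changes of -0.32 for LHCB4.1 and -0.40 for LHCB4.2 then passed limma, with adjusted p of 0.00271 and 0.000353. LHCB4.3 was nearly the same under both scalings, with 0.44 in WS and 0.48 in gpa1 after quantile normalization.

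Neither LHCB4.1 nor LHCB4.2 was called with the authors' scale, and both were called lower with quantile normalization, where their SE was 0.094 and 0.10 in place of 0.30 and 0.23. With each array centred on its median, LHCB4.1 had -0.56 in WS and 0.06 in gpa1, so its sign in gpa1 turned and the ABA and control arrays overlapped. Under the same centring LHCB4.2 had -0.34 and -0.12.

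**Figure D3:**
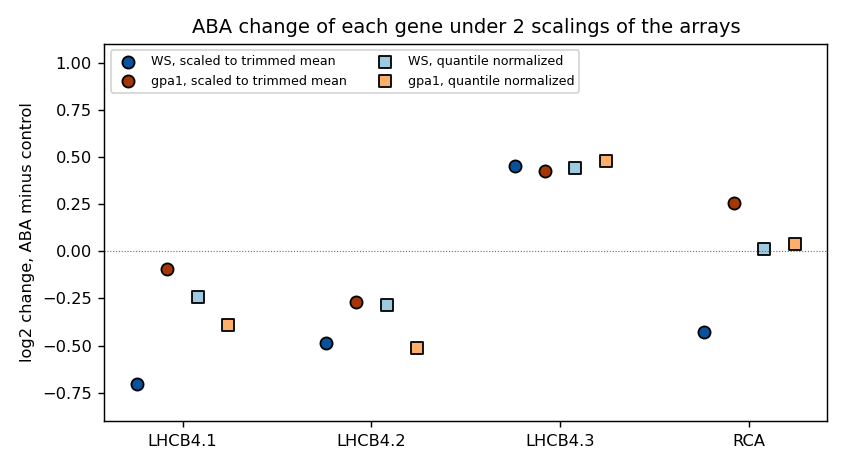
The log2 change with ABA of each gene in WS and gpa1, 1 array against 1 array, with arrays scaled to one trimmed mean (circles) or quantile normalized (squares). RCA spans -0.43 to 0.26 in the first scaling and 0.01 to 0.04 in the second, while LHCB4.3 lies between 0.43 and 0.48 in both.

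The comparison of gpa1 with WS asked whether the genes differed between the lines whatever the treatment. None of the 4 passed limma for the averaged genotype difference, a call that 2.9% of the tested probe sets received. LHCB4.3 was lower in gpa1 on both treatments, 1.13-fold without ABA and 1.15-fold with ABA, and its averaged log2 difference was -0.19 ± 0.17 (SE), with a 95% interval from -0.52 to 0.14 and a limma adjusted p of 0.811. Its ABA change of 0.44 was more than 2 times this size.

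For the bright members the genotype difference had opposite signs without and with ABA. RCA had a log2 difference of -0.34 without ABA and 0.34 with ABA, LHCB4.1 -0.27 and 0.34, and LHCB4.2 -0.12 and 0.09. The median of the 173 bright probe sets was -0.23 without ABA and 0.28 with ABA. The 95% interval of the averaged log2 difference ran from -0.61 to 0.61 for RCA, from -0.55 to 0.62 for LHCB4.1 and from -0.48 to 0.45 for LHCB4.2.

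No member changed 2-fold in any of the 4 comparisons of 1 array with another. The largest ratio between any 2 arrays was 1.63 for LHCB4.1, 1.55 for LHCB4.3, 1.40 for LHCB4.2 and 1.34 for RCA. A 2-fold change was reached by 15.3% of the tested probe sets with ABA in WS and by 14.7% in gpa1. Between gpa1 and WS it was reached by 1.14% without ABA and 1.76% with ABA.

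Other nuclear genes of photosynthesis, in lists chosen with earlier results of these data known, gave the setting of these values. Of 119 listed genes, 19 had a probe set with 1 gene and 18 were tested, of which 1 rose, 8 fell and 9 did not pass limma, or 44.4% lower against the background of 25.7%. Their median averaged log2 change was -0.43, beside -0.16 over all tested probe sets. None of the other listed antenna genes of photosystem I or II had a probe set with 1 gene. The same held for the listed genes of antenna import and regulation and the regulators of photosynthesis genes. The 18 tested genes therefore include no other antenna gene. The count of lower genes was 11 with quantile normalization and 5 with median centring, where 23.9% and 16.7% of all tested probe sets were lower. It was 0 with dim probe sets kept in, where no probe set was called. With treatment fitted alone it was 7, beside 17.6% of all tested probe sets, and with 1 array also left out it was 1 without WS control, 2 without WS ABA, 1 without gpa1 control and 3 without gpa1 ABA, beside 3.09% to 3.83% of all. Without the intensity trend 6 were lower, beside 22.5% of all tested probe sets. The count of higher genes was 0 with dim probe sets kept in and in each fit without 1 array. It was also 0 with probe sets removed up to the 60th percentile, where only 14 of these genes were tested. Of those 14, 8 were lower, or 57.1% beside 27.8% of all tested probe sets.

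Among subunits of photosystem II, the complex that CP29 serves, PSB27, an assembly factor, fell in both genotypes, 1.43-fold in WS and by a factor of 1.30 in gpa1. Its averaged log2 change was -0.45 ± 0.17 (SE), with a limma adjusted p of 0.0248. The small subunits PSBW and PSBY missed the threshold, with log2 values of -0.59 in WS and 0.34 in gpa1 for PSBW and -0.53 and -0.11 for PSBY. The same was true of the photosystem I subunits PSAE-1, at -0.57 and -0.06, and PSAN, at -0.41 and 0.09. PSBW, PSBY, PSAE-1 and PSAN all had a mean intensity over 2000, like RCA, LHCB4.1 and LHCB4.2.

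Of the Rubisco list, TRXF2, a thioredoxin f of the kind that regulates the long form of Rubisco activase, had values of -0.35 in WS and -0.12 in gpa1 on the log2 scale and did not pass. AT3G04550 and AT3G47650 fell, with averaged log2 changes of -1.04 and -0.43 and limma adjusted p of 0.000304 and 0.00889. AT5G28500, at -0.42, and AT3G48420, at -0.06, did not pass, and LSMT-L was too dim to be tested. The annotation gives no symbol for these 4 loci, which are named by locus only.

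In the Calvin cycle, which uses the product of Rubisco, PRK, the phosphoribulokinase that regenerates the substrate of Rubisco, fell 1.95-fold in WS and by a factor of 1.25 in gpa1. Its averaged log2 change was -0.64 ± 0.23 (SE), with a limma adjusted p of 0.0168. AT1G56190 of the same list fell as well, by 0.53 on the log2 scale. SBPASE, sedoheptulose-bisphosphatase, had -0.43, with a limma adjusted p of 0.0501, just beyond the threshold.

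The largest averaged changes among the 18 tested genes were those of PORB and CHLM, both of pigment synthesis. PORB, a protochlorophyllide oxidoreductase, fell 2.74-fold in WS and by a factor of 1.92 in gpa1, and CHLM, a methyltransferase of chlorophyll synthesis, fell 2.51-fold and 2.04-fold. Their averaged log2 changes were -1.20 and -1.18, with limma adjusted p of 2.35e-12 and 1.61e-12. GSA1, an aminotransferase of the early pathway, fell by 0.61 on the log2 scale, and CHLI2, a subunit of magnesium chelatase, had -0.35 and did not pass. HEMA2, a glutamyl-tRNA reductase, rose 1.71-fold in WS and by a factor of 1.75 in gpa1, with an averaged log2 change of 0.79 ± 0.23 (SE) that had a limma adjusted p of 0.00257. HEMA2 and LHCB4.3 were thus the genes of these lists that rose.

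**Figure D4:**
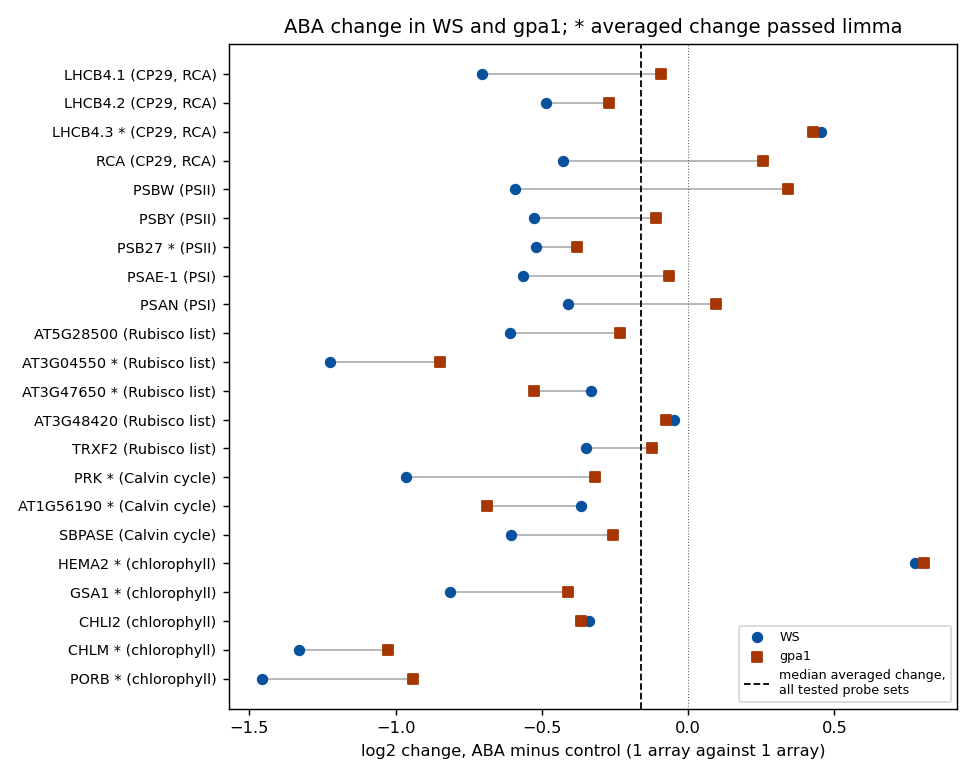
The log2 change with ABA in WS (circles) and gpa1 (squares), 1 array against 1 array, for the CP29 genes, RCA and the 18 other tested photosynthesis genes, with the median averaged change of all tested probe sets as a dashed line; an asterisk marks an averaged change that passed limma. LHCB4.3 and HEMA2 lie to the right of 0 in both genotypes, and RCA, PSBW and PSAN have one value on each side of 0.

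The root markers were read in the same whole-plant RNA, so no separate tissue was compared. EXPA18, a root-hair expansin, changed by -1.27 in WS and -0.02 in gpa1 on the log2 scale, and its averaged change passed limma with an adjusted p of 0.00759. EXPA7 had -0.92 and 0.55, and PYK10, a beta-glucosidase of roots, -0.47 and -0.05, and neither passed. The share of root tissue in each pool, and its part in the values of the CP29 genes and RCA, was not tested.

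The patterns of the 4 members over the arrays were compared with each other after each log2 value was centred on the gene's mean. LHCB4.1 and LHCB4.2 were the most alike, with a root mean square difference of 0.10, followed by LHCB4.1 and RCA at 0.16 and LHCB4.2 and RCA at 0.19. LHCB4.3 differed from RCA by 0.33, from LHCB4.2 by 0.42 and from LHCB4.1 by 0.46. By the same measure over 4 arrays, the nearest of 7087 measured genes to RCA were AT4G00840 at 0.016, atpE at 0.021 and ndhD at 0.026. AT4G00840 was dim, with intensities from 34.7 to 46.2. Chloroplast DNA encodes atpE, a subunit of ATP synthase, and ndhD, a subunit of the NDH complex. The order of RCA, lower with ABA in WS and higher in gpa1, was also that of 45.7% of the 173 bright probe sets and of the spike-in probe sets. The nearest to LHCB4.1 were AT5G44060, SIC and GAPC2, to LHCB4.2 Y14, AT3G52030 and AT4G12060, and to LHCB4.3 AT2G18090, AT1G17620 and SNF7.2, all within 0.032. These likenesses over 4 arrays are a description with no test.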

How the data were processed

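The deposited table holds linear probe-set intensities that the authors had scaled: the 2%-trimmed mean of every array was 100.0. Per the labels' protocols, biotin-labelled cRNA was made with an oligo(dT) primer. No source used here names the summarising program. Arrays were rescaled to a trimmed mean of 100, values below the 30th percentile (19.2) were raised to it, and log2 was taken. The 64 control probe sets were set aside, and 13647 probe sets, those whose mean log2 intensity exceeded its 40th percentile, were tested. The averaged ABA change and genotype difference were fitted with limma 3.58.1 in R 4.3.3 (treatment plus genotype, 1 residual degree of freedom, intensity trend, two-sided, Benjamini-Hochberg over all tested probe sets). Moderation weighed each probe set's own spread against a median of 171 prior degrees of freedom. In the treatment plus genotype fit, p-values rest on how far the ABA changes of the 2 genotypes differed, pooled over probe sets. They do not measure a spread between replicate pools, as no group had a second array. The script was tested on simulated data.

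Genes were named through the platform annotation and RefSeq TAIR10.1. Listed genes with 1 probe set were named, with values for those that passed and up to 6 others per list, and the 3 nearest patterns per member. Members and lists were chosen with earlier results of these data known. The number of arrays limits the precision. Alternatives covered scaling, floor, filter, spread model and arrays left out.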

Additional observations from a re-analysis of the deposited data

Results flagged for a closer look

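RCA, the subunits PSBW and PSAN, and the root expansin EXPA7 had ABA changes of opposite sign in the 2 genotypes, each lower in WS and higher in gpa1. These differences were not tested, since each rests on 1 array per group. The log2 change in gpa1 minus that in WS was 0.68 for RCA (-0.43 in WS, 0.26 in gpa1), 0.93 for PSBW (-0.59 and 0.34), 0.50 for PSAN (-0.41 and 0.09) and 1.47 for EXPA7 (-0.92 and 0.55). The median of the same quantity was 0.48 over the 173 tested probe sets with a mean intensity of at least 2000, which include RCA, PSBW and PSAN, and 1.35 for the spike-in probe sets. EXPA7 was dim, with intensities of 80.3, 42.4, 48.1 and 70.2 in WS control, WS ABA, gpa1 control and gpa1 ABA. The part of the technical readings in these values was not tested. Only the tested members and listed genes were searched for opposite signs. Over all tested probe sets, 21.4% had opposite signs in either order, and 10.6% were lower in WS and higher in gpa1.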

How the results depend on the processing

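No fit with a replicate number as a block was possible, because each group had 1 array and the labels give no such numbers; the fit of treatment plus genotype already compares arrays within each genotype. With quantile normalization the averaged ABA changes of LHCB4.1 and LHCB4.2 passed limma, at -0.32 and -0.40, and that of RCA was 0.025. With median centring RCA had 0.063. Changes of sign in values that were not called, as all of these for RCA, say only that the sign was not resolved. LHCB4.3 had 0.44 and lost its call with no filter, no intensity trend or treatment fitted alone. With treatment fitted alone and 1 array also left out in turn (2 choices changed together), the ABA change ranged from 0.34 to 0.54 for LHCB4.3, from -0.26 to 0.086 for RCA, from -0.57 to -0.23 for LHCB4.1 and from -0.44 to -0.32 for LHCB4.2, and none was called, as was already so with all 4 arrays and treatment fitted alone. The genotype difference, never called for a member, was 0.0093 for RCA with quantile normalization, 0.018 for RCA and 0.00035 for LHCB4.2 with median centring, and with genotype fitted alone and 1 array left out from -0.32 to 0.39 for LHCB4.1, -0.26 to 0.23 for LHCB4.2, -0.42 to 0.039 for LHCB4.3 and -0.21 to 0.21 for RCA. The cause of these shifts was not tested.

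Over all probe sets, median centring called 2284 lower with ABA. Without the filter limma called 0 higher, 0 lower and 0 between genotypes, against 2064, 2990 and 1186 at an unadjusted p under 0.05. With treatment fitted alone on all 4 arrays, 1825 were higher and 2396 lower, and with 1 array also left out 732 to 1001 and 422 to 522. The genotype fitted alone called 0 on all 4 arrays (120 at an unadjusted p under 0.05) and 0 with 1 array also left out (68 to 95). Without the intensity trend the genotype called 108. At 2-fold, gpa1 against WS counted 96 without ABA and 152 with ABA when the floor was the 45th percentile, 78 and 117 with no floor, and 71 and 99 when the filter was the 60th percentile, which tests fewer probe sets. That filter left 1338 for ABA in WS and 1254 in gpa1.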
